A study of Homo sapiens with 2 samples.

Results

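STRA6 and 8 further genes of retinoid handling (RBP4, RDH10, DHRS3, ALDH1A2, ALDH1A3, CRABP1, CRABP2 and CYP26B1) were examined for DEK peaks. The peaks came from ChIP-seq of DEK, a chromatin protein found at high levels in many nuclei, in the human renal carcinoma line 786-O. The 9 genes are 9 of the 19970 protein-coding genes with a position on chromosomes 1 to 22 and X in the RefSeq table. The set was selected on the DEK peaks of these same libraries, which are dense at STRA6, with its pathway partners added, so its peak counts are given as a description and no test was made on them. A peak was assigned to a gene when it overlapped the gene span plus 10 kb each side, called the window here. The series holds 2 libraries, replicates 1 and 2 of 1 group labelled as a negative control of wild-type genotype, both with DEK as the antibody entry and with Cas9 in their description. The labels leave unsaid whether the cells or the precipitation served as the control, and whether separate cultures were used, so the spread between the replicates may be technical. The libraries were read here as DEK precipitations from control cells, and no input, DEK-edited or other-antibody library was analysed here.

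Retinol, the alcohol form of vitamin A, travels in plasma bound to RBP4 and can enter cells through the membrane receptor STRA6. Inside the cell it is oxidised to retinaldehyde, a step that RDH10 carries out and that DHRS3 reverses, and ALDH1A2 and ALDH1A3 oxidise retinaldehyde further to retinoic acid. CRABP1 and CRABP2 bind retinoic acid in the cytosol, CYP26B1 breaks it down, and the nuclear receptors of the RAR and RXR families read it out at target genes. The kidney reabsorbs filtered RBP4 in the proximal tubule, the segment from which clear cell renal carcinoma is thought to arise.

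The annotated starts of STRA6, DHRS3 and CYP26B1, the 3 genes with DEK regions found in both replicates, differ in CG dinucleotides, and none of them held a peak. The 250 bases before 2 of the 5 annotated starts of STRA6 (the farthest upstream, and the one with the nearest DEK region) and before the farthest upstream starts of DHRS3 and CYP26B1 are printed 5′ to 3′ on the strand of the gene (RefSeq, GRCh38.p14, minus strand for all), with each CG in capitals. They are, in the order printed, chr15:74212260-74212509, chr15:74208055-74208304, chr1:12618211-12618460 and chr2:72147863-72148112.
STRA6, farthest upstream start: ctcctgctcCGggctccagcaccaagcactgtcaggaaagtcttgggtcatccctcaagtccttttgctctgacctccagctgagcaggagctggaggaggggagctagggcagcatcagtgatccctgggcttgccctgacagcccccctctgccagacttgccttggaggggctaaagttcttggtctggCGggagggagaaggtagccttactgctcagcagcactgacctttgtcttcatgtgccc
STRA6, start with the nearest region: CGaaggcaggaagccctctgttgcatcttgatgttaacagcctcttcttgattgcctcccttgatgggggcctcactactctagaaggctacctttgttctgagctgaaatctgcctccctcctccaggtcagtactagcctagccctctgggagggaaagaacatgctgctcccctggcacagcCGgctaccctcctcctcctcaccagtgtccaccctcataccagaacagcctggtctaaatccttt
DHRS3: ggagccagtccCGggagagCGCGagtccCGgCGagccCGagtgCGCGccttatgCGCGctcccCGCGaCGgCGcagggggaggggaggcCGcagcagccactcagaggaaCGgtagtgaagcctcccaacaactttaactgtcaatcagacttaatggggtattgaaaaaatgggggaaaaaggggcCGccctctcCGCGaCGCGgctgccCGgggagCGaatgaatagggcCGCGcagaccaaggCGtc
CYP26B1: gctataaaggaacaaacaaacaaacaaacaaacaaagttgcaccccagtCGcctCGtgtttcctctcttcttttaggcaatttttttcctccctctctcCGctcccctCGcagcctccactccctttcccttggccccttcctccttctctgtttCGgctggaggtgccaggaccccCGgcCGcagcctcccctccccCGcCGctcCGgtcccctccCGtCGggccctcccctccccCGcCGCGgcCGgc
Both STRA6 stretches held 2 CG, fewer than most of the 22011 start windows of protein-coding genes, whose median was 16. The DHRS3 stretch held 26 and the CYP26B1 stretch 16. The promoter table matched 8 of the 9 genes, with 17 annotated starts. The CG counts ranged from 2 to 8 over the 5 STRA6 starts. Before the other DHRS3 starts they were 10 and, farthest downstream, 3, which lies in the STRA6 range. The other stretches with most CG stood before the upstream start of ALDH1A2 (33) and the start of ALDH1A3 (38). The letters AGGTCA, a half-site that many nuclear receptors bind, and the letters AGTTCA were searched on both strands of these 250 bases. AGGTCA occurred 2 times before the farthest upstream STRA6 start. It occurred 1 time each before the STRA6 start printed next and the DHRS3 start farthest downstream. Thus 3 of the 17 stretches had a match, against 10.5% of all start windows. AGTTCA was found in 1 of the 17, before the downstream start of ALDH1A2, against 7.32% of all start windows. The start windows of the set, here with 50 bases after the start, overlapped no peak of either replicate in 17 of 17 cases. They thus overlapped no shared region either, and only 3.61% of all 22011 windows did overlap one. The share of all windows with a peak of either replicate was not counted, and 5 of the 17 windows belong to STRA6.

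Without a further peak threshold, DEK regions were concentrated at STRA6 and, to a lesser degree, at DHRS3. STRA6 held 7 peaks of replicate 1 and 7 of replicate 2, DHRS3 held 6 and 7, and CYP26B1 held 1 and 1. RDH10 had 1 peak in replicate 1 only, and ALDH1A2 had 1 in replicate 2 only. RBP4, ALDH1A3, CRABP1 and CRABP2 had no peak in either library. With 4 of the 9 genes holding a peak of replicate 1 and 4 a peak of replicate 2, the set lay beside 43.5% and 49.7% of all protein-coding genes. A peak of replicate 1 and a peak of replicate 2 with 1 bp or more in common were counted as 1 shared region. The 9 windows held 12 of them in 485.58 kb, 7 at STRA6, 4 at DHRS3 and 1 at CYP26B1. With only peaks of −log10 q 5 or higher, 2 were left at STRA6, 3 at DHRS3 and 1 at CYP26B1. Thus 3 of the 9 genes had a shared region, beside 32.9% of all protein-coding genes counted in the same way, so the share of the set lay at the background. The median of the 9 genes was 0 shared regions per 100 kb, and so was the median over all protein-coding genes. Pooled over their summed length, the windows held 2.47 shared regions per 100 kb with STRA6 and 1.16 without it. The densities of single protein-coding genes had a mean of 0.938, a different measure from these pooled values.

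**Figure D1:**
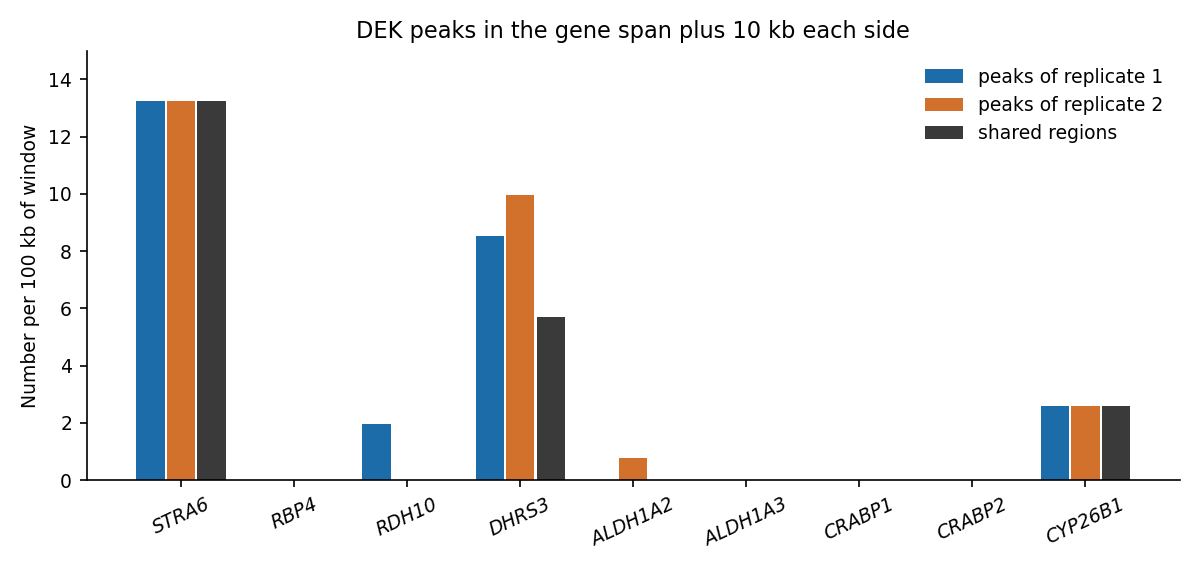
Peaks of each replicate and shared regions per 100 kb of window (vertical axis) for the 9 genes (horizontal axis); each bar is 1 count divided by the window length, with no error bar. STRA6 stands at 13.3 in all 3 bars, DHRS3 at 8.54, 9.96 and 5.69, and RBP4, ALDH1A3, CRABP1 and CRABP2 have no bar.

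The peak lists behind these counts held 19015 peaks of replicate 1 and 24457 of replicate 2 on chromosomes 1 to 22 and X, with 12590 shared regions. Fold enrichment, the authors' ratio at the peak summit, was 3.99 at the median peak of replicate 1 and 3.89 at that of replicate 2. The summit pileup is the number of fragments stacked at the summit and was solved from the deposited values. Its median was 19 in each library, which leaves a wide counting error on the fold enrichment of any single peak. The background at a peak, solved in the same step, had a median of 219 and 246 reads per 10 kb. It came out in whole reads and was read as the library's own reads around the summit, on the assumption that peaks were called without a control library, on which the labels are silent.

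STRA6, the gene of the retinol receptor (gene ID 64220), lies on the minus strand of chromosome 15 at 74179466 to 74212259 (GRCh38). Its window of 52.8 kb held 13.3 peaks per 100 kb in replicate 1, 13.3 in replicate 2 and 13.3 shared regions per 100 kb. Of all protein-coding genes, 20 (0.1%) had a density at least as high, STRA6 among them. The 19 genes above it had windows of at most 36.95 kb with at most 5 shared regions, in which a single region makes 2.707 or more per 100 kb, against 1.89 at STRA6. Of the 11586 protein-coding genes with a window no longer than that of STRA6, it was the 1 gene with 7 shared regions, and 0.591% of all genes had at least 7 in a window of any length. The set was selected on these peaks, so the ranks only describe STRA6.

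The 7 regions ran from inside the gene to just beyond its downstream end, over 29.4 kb. The region nearest to the farthest upstream start had its summits at 74207019 and 74206851 in replicates 1 and 2, on average 5.32 kb into the gene, with a fold enrichment of 3.48 and 3.32. It also lay inside CCDC33, a gene on the opposite strand that overlaps the upstream part of STRA6. The next region followed at 11.5 kb (summits at 74200602 and 74200849) with 2.81 and 3.41. A further region at 15.9 kb (74196439 and 74196359) had 3.34 and 3.08. The peaks of these 3 regions all lay below the medians of their libraries.

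The strongest STRA6 region stood in the middle of the gene, 18.8 kb from the start, with summits at 74193463 and 74193379. Its fold enrichment was 4.57 in replicate 1 and 3.88 in replicate 2 (4.23 ± 0.493, SD, n = 2). Among the STRA6 peaks of both libraries, that of replicate 1 in this region was the 1 above its library's median. After a gap of 13.8 kb without a region, 3 regions lay within 2 kb of the downstream end of the gene. The first had summits at 74179647 and 74179594, 0.1545 kb inside the gene on average, with 3.77 and 3.86 (3.82 ± 0.0651). The other two lay in the 2.595 kb between STRA6 and ISLR, a gene of a secreted leucine-rich repeat protein that runs on the plus strand and ends toward STRA6. They stood 1.28 kb beyond the STRA6 end (74178194 and 74178184, 2.93 and 2.94) and 1.90 kb beyond it (74177630 and 74177506, 2.83 and 2.89). These 2 had the lowest mean fold enrichment of the 7 regions, and their replicates lay closest to each other. Of 15811 protein-coding genes with a strand in the promoter table, 4.02% had a shared summit within 2 kb of the downstream end and 7.62% within 2 kb of the start, and STRA6 was the 1 gene (0.00632%) with at least 3 at the end. This window was chosen after the STRA6 peaks had been seen.

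**Figure D2:**
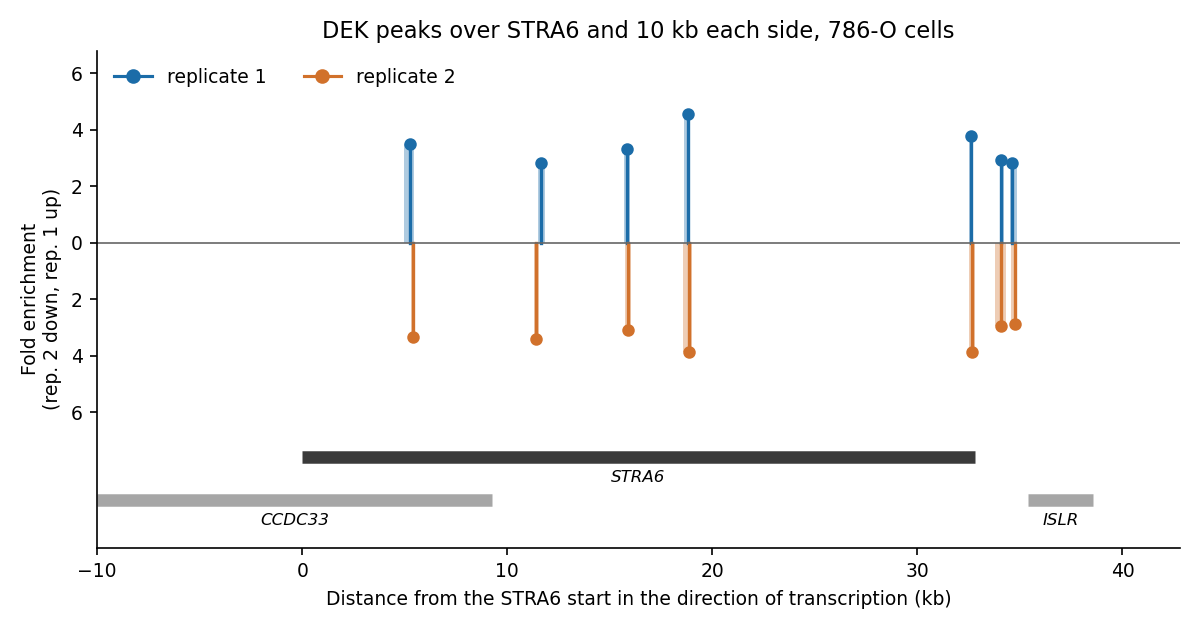
Fold enrichment of each DEK peak (vertical axis, replicate 1 upward and replicate 2 downward) against distance from the farthest upstream STRA6 start in kb (horizontal axis, positive in the direction of transcription); dots mark summits, shaded boxes peak widths, and bars below the parts of STRA6, CCDC33 and ISLR in the window. Each of the 7 peaks of replicate 1 faces a peak of replicate 2, from 5.32 kb inside the gene to 1.90 kb beyond its end.

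All 7 STRA6 peaks of each replicate overlapped a peak of the other replicate. Over all peaks with a −log10 q in the range seen at STRA6, 67.9% of replicate 1 and 50.03% of replicate 2 were shared. In the STRA6 regions the summits of the 2 replicates lay 10 to 247 bp apart, with a median of 84 bp, against 69 bp over all shared regions. The widest gap belonged to the region at 11.5 kb, whose peaks overlapped by only 40 bp. The density depended on how sharing and peaks were defined: it was 7.58 per 100 kb with 50% reciprocal overlap, 7.58 with summits within 100 bp, and 3.79 with only peaks of −log10 q 5 or higher.

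The STRA6 peaks were many but weak, and they lay where the local read count was high. Fold enrichment ran from 2.81 to 4.57 in replicate 1, with 1 of 7 above the library median, and from 2.89 to 3.88 in replicate 2, with 0 of 7 above it. The summit pileup was 21 to 35 (median 22) and 21 to 31 (median 25), above the library median of 19. The background around these summits was 315 to 466 reads per 10 kb in replicate 1 (median 383) and 345 to 537 in replicate 2 (median 447), and 86.6% and 87.4% of all peaks of the libraries had a background below these medians. Across the series, shared regions in windows with a single shared region had a median background of 204 and 238 reads per 10 kb in replicates 1 and 2, and those in windows with at least 7 had 344 and 404.5. The median fold enrichment went the other way, from 4.23 to 3.73. STRA6 thus shared its high background with other densely occupied genes, and the part of local read count in its density was not tested.

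The regions around STRA6 were sparser than in its window but denser than on the chromosome as a whole. The 500 kb on each side of the gene, outside the window, held 11 shared regions, or 1.12 per 100 kb, beside 0.297 per 100 kb of chromosome 15 up to the end of its last gene. The nearest of them lay 27.9 kb from the gene, upstream of its start. The same flanks of the other genes of the set on chromosome 15 also lay above the chromosome. They held 0.816 per 100 kb at ALDH1A2, 0.816 at ALDH1A3 and 0.612 at CRABP1. The protein-coding genes most like STRA6 were taken from 3763 genes with windows of similar length, outside the retinoid lists and not overlapping its window, by the smallest difference in shared regions per 100 kb over the 2 libraries. They were SLC2A1 with 11.2, CSNK1D with 10.96, SEMA4B with 10.8, SMAD7 with 9.78 and GRAPL with 9.69.

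**Figure D3:**
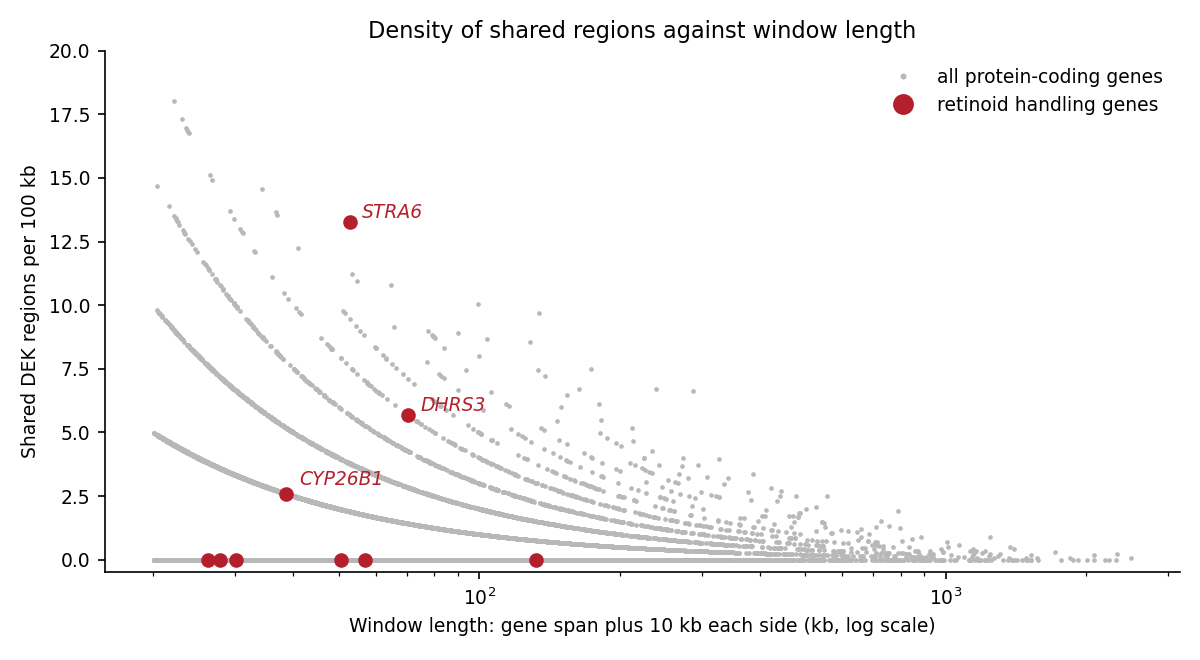
Shared DEK regions per 100 kb (vertical axis) against window length in kb (horizontal axis, log scale) for all protein-coding genes (grey) and the 9 retinoid genes (red). The curved rows are windows with the same whole number of regions; STRA6 at 52.8 kb and 13.3 per 100 kb stands above every other window longer than 36.95 kb, DHRS3 at 5.69 and CYP26B1 at 2.59 lie inside the cloud, and the other 6 lie at 0.

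RBP4, the plasma carrier that delivers retinol to STRA6, contrasted with its receptor. Its window on chromosome 10 (gene at 93591694 to 93601744) was 30.05 kb long and had no peak in either replicate. The nearest shared region lay 132.5 kb from the gene and the nearest peak 115.7 kb. The window was short, so that a single region would have made 3.33 per 100 kb. Of all protein-coding genes 44.1% had no peak of either replicate in the window, and among windows under 40 kb 25.5% had a shared region. An empty window says only that nothing there reached the authors' threshold with these reads.

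DHRS3, the reductase that returns retinaldehyde to retinol, had shared regions, and RDH10, the other enzyme of this step among the 9 genes, had none. The gene (ID 9249) lies on the minus strand of chromosome 1 at 12567910 to 12618210, and its window of 70.3 kb held 4 shared regions, or 5.69 per 100 kb. Of all protein-coding genes 2.82% had a higher density, and 2.53% had at least 4 shared regions. A first region stood 13.7 kb into the gene (summits at 12604480 and 12604530) with a fold enrichment of 3.604 in replicate 1 and 3.01 in replicate 2. The region at 29.8 kb (12588458 and 12588388) had 4.01 and 3.86 and was the strongest of the gene by its mean (3.93 ± 0.109, SD, n = 2). At 44.3 kb (12573992 and 12573802) the values were 4.01 and 3.45. The last, 0.667 kb beyond the downstream end, had 2.72 and 3.17, with the summits 371 bp apart (12567058 and 12567429) and only 54 bp of overlap. Fold enrichment was higher in replicate 1 in 3 of the 4 regions.

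The other DHRS3 peaks belonged to 1 replicate each. Replicate 1 alone had peaks 16.1 kb and 20.8 kb into the gene, with a fold enrichment of 2.79 and 2.57. The second of these summits lay 0.796 kb before the DHRS3 start farthest downstream. Replicate 2 alone had peaks at 43.8 kb (2.76), 1.72 kb beyond the downstream end (2.86) and 1.90 kb before the farthest upstream start (3.07). All 5 lay below the medians of their libraries. Of the DHRS3 peaks, 4 of 6 in replicate 1 and 4 of 7 in replicate 2 were shared, where STRA6 had 7 of 7 in both. As at STRA6, the background was high: 350 to 609 reads per 10 kb in replicate 1 and 378 to 713 in replicate 2. The 500 kb on each side held 0.714 shared regions per 100 kb, beside 0.604 on chromosome 1. The count of 4 shared regions fell to 2 with 50% reciprocal overlap and to 2 with summits within 100 bp. With only peaks of −log10 q 5 or higher 3 were left, against 2 at STRA6. With only peaks of a fold enrichment of 5 or higher 0 were left. Without replicate 1, the 7 peaks of replicate 2 stood in place of the 4 shared regions.

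RDH10, the retinol dehydrogenase that acts in the opposite direction to DHRS3, lies on chromosome 8 at 73294602 to 73325281. A single peak of replicate 1 was found in its window of 50.7 kb, 13.2 kb from the end of lower coordinate, with a fold enrichment of 3.82 and a pileup of 16 over a background of 194 reads per 10 kb. Replicate 2 had no peak there, and the nearest shared region lay 31.03 kb from the gene. Among windows of 40 to 80 kb, 33.1% had a shared region.

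**Figure D4:**
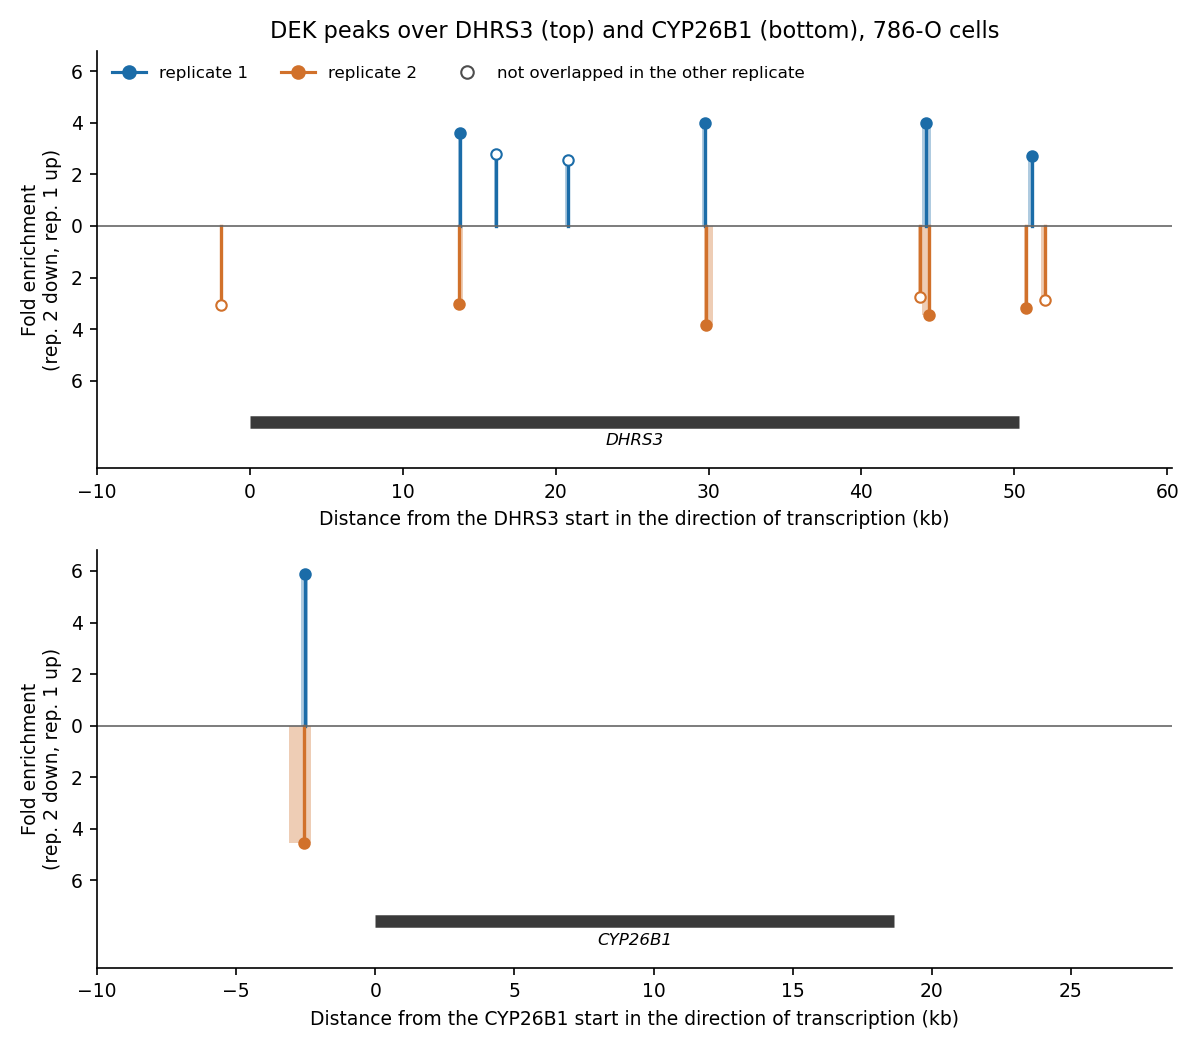
Fold enrichment of each DEK peak (vertical axis, replicate 1 upward and replicate 2 downward) against distance in kb from the farthest upstream start of DHRS3 (top) and CYP26B1 (bottom), positive in the direction of transcription; filled dots mark summits of peaks shared by the replicates, open dots those of 1 replicate only. DHRS3 has 4 shared regions from 13.7 kb to just beyond its end and 5 unshared peaks, and CYP26B1 has 1 shared region 2.56 kb before its start.

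The genes of retinoic acid synthesis were nearly empty. ALDH1A2, on chromosome 15 at 57953429 to 58065711, is the longest of the 9 genes, and its window of 132.3 kb held 1 peak, in replicate 2 only, 22.3 kb into the gene. Its fold enrichment was 3.44 with a −log10 q of 1.96 and a pileup of 10 over a background of 135 reads per 10 kb, the smallest pileup of all peaks in the 9 windows. The nearest shared region lay 204.3 kb away. Among windows of 80 kb or more, 45.1% had a shared region. ALDH1A3, on the same chromosome at 100879831 to 100916626, had no peak in a window of 56.8 kb, and its nearest shared region stood 42.05 kb from the gene, inside the neighbouring gene LRRK1.

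The cytosolic binding proteins of retinoic acid had no peaks. CRABP1, on chromosome 15 at 78340353 to 78348225, had its nearest shared region 274.5 kb away, the farthest of the 9 genes. CRABP2, on chromosome 1 at 156699606 to 156705784, had its nearest at 20.1 kb, and a window of 25 kb each side would have included it. The windows of the 2 genes, 27.9 kb and 26.2 kb, were the shortest of the set. Empty windows were common, with no peak of either replicate at 44.1% of all protein-coding genes. Among windows under 40 kb, 25.5% had a shared region.

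CYP26B1, the cytochrome P450 that breaks down retinoic acid, had the region with the highest fold enrichment of the 9 genes, but not with the highest −log10 q. The gene (ID 56603) lies on the minus strand of chromosome 2 at 72129238 to 72147862, and the region lay 2.56 kb before its start, with summits at 72150408 and 72150429, 21 bp apart. Fold enrichment was 5.87 in replicate 1, higher than 95% of the peaks of that library, and 4.55 in replicate 2 (5.21 ± 0.934, SD, n = 2). The replicates differed more here than in any other region of the set. The pileup was 22 in replicate 1, equal to the median of the STRA6 peaks there, and 18 in replicate 2, below all STRA6 peaks of that library, over a background of only 164 and 195 reads per 10 kb. The peak was 239 bp wide in replicate 1 and 808 bp in replicate 2, and this region was no longer shared with 50% reciprocal overlap. It was also the region farthest from its gene among those inside the windows. The nearest shared region outside any window belonged to DHRS3, at 18.2 kb, and the nearest single peak to CYP26B1, at 13.6 kb in replicate 2.

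Among the 12 shared regions of the set, 2 (1 at STRA6 and that at CYP26B1) had a mean fold enrichment above the median of 4.12 over all shared regions. Of all peaks in the 9 windows, 4 of 15 in replicate 1 and 1 of 16 in replicate 2 lay above the median of their library. Replicate 1 was the higher in 7 of the 12 regions, beside 50.6% of all shared regions. Of the peaks in the windows, 12 of 15 in replicate 1 (80%) and 12 of 16 in replicate 2 (75%) were shared, beside 67.8% and 52.2% of all peaks. These shares only describe the set, since it was selected on these peaks.

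**Figure D5:**
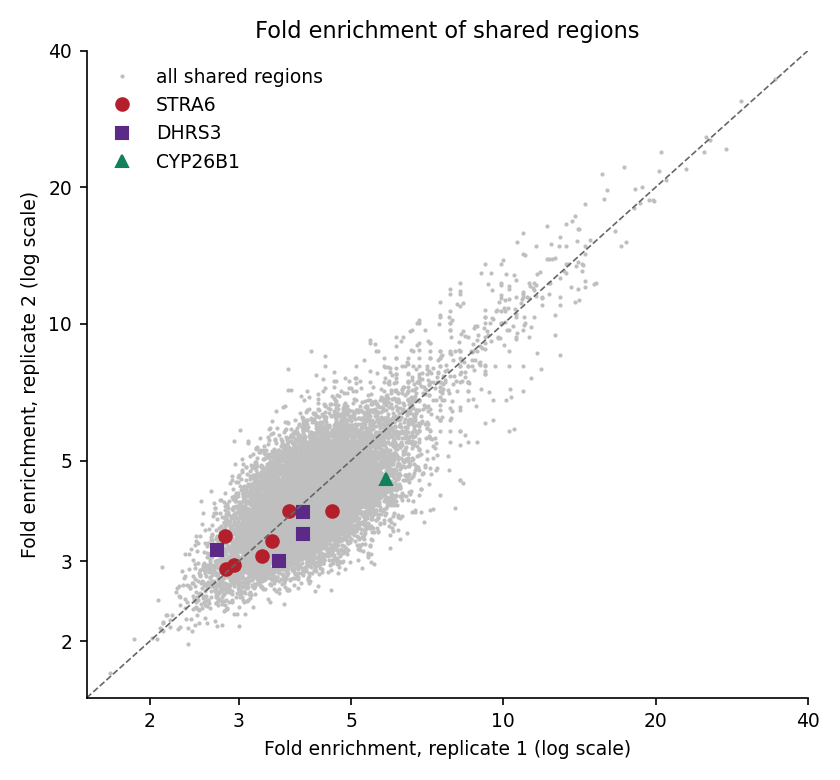
Fold enrichment in replicate 1 (horizontal axis) and replicate 2 (vertical axis), both on log scales, for all 12590 shared regions (grey) and those of STRA6, DHRS3 and CYP26B1; the dashed line marks equal values. The STRA6 and DHRS3 regions sit in the lower part of the cloud near the line, and the CYP26B1 region sits higher, below the line at 5.87 and 4.55.

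The wider retinoid pathway was counted in the same windows over 49 further genes with a position in the table. Of these, 19 (38.8%) had a shared region, beside 32.9% of all protein-coding genes. A peak of either replicate was found at 33 of them (67.3%), beside 55.9% of all protein-coding genes. The receptors that read out retinoic acid had 4 of 6. RXRA, the dimer partner of many nuclear receptors, held 16 peaks of replicate 1, 14 of replicate 2 and 13 shared regions in 134.1 kb, or 9.69 per 100 kb. Its regions reached at most 4.57 ± 0.0436 (SD, n = 2). RXRB held 3 shared regions in a window of 27.3 kb (11.0 per 100 kb), and the retinoic acid receptor gene RARA held 3, with mean fold enrichments of only 2.59 to 2.84. RARB had 2 in a window of 788.6 kb, and RARG and RXRG had none, with 2 peaks and 1 peak in replicate 2 alone. Some regions of RXRA and RARB, and most of those of RXRB, lay outside the gene, in the flank.

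The groups that follow stand beside the 32.9% of all protein-coding genes with a shared region. Target genes of retinoic acid also had 4 of 6, led by the transglutaminase gene TGM2 with 4 shared regions (6.55 per 100 kb, up to 4.07 ± 0.177). Other enzymes of retinol and retinaldehyde conversion had 7 of 16. The neighbours RDH11 and RDH12, whose windows overlap, had the same region, which was counted for each. DHRS9 (4.07 per 100 kb) and RDH5 (8.23 per 100 kb) held 2 shared regions each. Genes of retinoic acid synthesis and breakdown had 2 of 5, with 1 shared region each at ALDH8A1 (in the flank, outside the gene) and AOX1. RDH5 and AOX1 were named after their values were seen, since they tied on the count, and RDH11 and RDH12 for their common region. Genes of storage and carotenoid cleavage had 1 of 5, the acyltransferase gene DGAT1, with its region in the flank. Uptake and transport genes had 1 of 11, the scavenger receptor gene SCARB1 with a fold enrichment of 4.86 ± 0.0216 (SD, n = 2). SCARB1 and STRA6 apart, no uptake or transport gene named in the list had a shared region, RBP4 included. The groups are small, and the differences between them were not tested.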

How the data were processed

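DEK ChIP-seq peaks of 2 libraries (2 replicates of 1 group) were taken from the authors' deposited narrowPeak lists, 1 per library. Per the submitters' processing notes the build was GRCh38 (hg38) and the tools, with no role given, included MACS2 2.2.7.1 (a peak caller), Bowtie2 2.2.5 (an aligner) and cutadapt 1.18. The deposited values used were the fold enrichment (a linear ratio at the summit), its −log10 p and −log10 q, and the summit offset. The deposited score, 10 times the −log10 q as a whole number, was not used in any count. The labels give no read total for either library.

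Peaks on chromosomes 1 to 22 and X were kept. Windows were RefSeq gene spans (GRCh38.p14) plus 10 kb each side. Peaks of the replicates overlapping by at least 1 bp formed a shared region, which took its strongest peak per library. Pileup and background were solved from fold enrichment and the Poisson p. A whole-number pileup met the p within a relative 5e-05 in over 99.99% of peaks, and backgrounds of peaks with a pileup under 100 were whole reads per 10 kb (within 0.05) at fragment lengths of 178 and 163 bp. Strands and starts came from RefSeq start windows. Counting and solving were tested on simulated data. Python 3.11.15, numpy 2.4.6, pandas 2.3.3 and scipy 1.17.1 were used.

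The genes and lists were chosen with earlier results of these data known. All 9 genes are named. Of the other pathway genes, the RAR and RXR genes and the gene of each group with most shared regions (ties by summed fold enrichment) are named, and 1 of the 50 listed had no position. Alternatives varied the flank, assignment by summit, peak thresholds, the definition of sharing and the replicates used. No genome sequence was used, so peak sequences, exons and introns were not analysed here.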

Additional observations from a re-analysis of the deposited data

How the results depend on the processing

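No paired analysis was possible because the series holds 1 group. Requiring a fold enrichment of at least 5 left 0 of the 9 genes with a shared region, 0 shared regions, 0 per 100 kb at STRA6 and 0% of peaks shared. That share rests on a single peak, since 1 of 15 peaks of replicate 1 and 0 of 16 of replicate 2 reached this threshold. A −log10 q of at least 5 left 6 shared regions at the same 3 genes, 3.79 per 100 kb at STRA6, and 92.3% of peaks shared, against 77.4% as reported. With 50% reciprocal overlap there were 6 shared regions, 7.58 per 100 kb at STRA6 and 38.7% of peaks shared. With summits within 100 bp there were 7 shared regions, 7.58 per 100 kb at STRA6 and 45.2% of peaks shared. A flank of 25 kb lowered the STRA6 density to 8.455 per 100 kb. The gene span alone left 2 genes, without CYP26B1, and 8 shared regions, with 15.25 per 100 kb at STRA6 and 76.2% of peaks shared. A flank of 5 kb and assignment by summit moved none of these 4 values by more than 1.5 times, or the share of peaks by more than its SD between replicates. Leaving out either replicate, with the peaks of the other counted as regions, gave 4 genes, 15 to 16 regions and 13.3 per 100 kb at STRA6. Summit pileups with a median of 19 fragments limit the precision of every fold enrichment given.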
